A study of Homo sapiens with 33 samples.

Results

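The genes described here are the nuclear-encoded subunits of the mitochondrial respiratory chain and ATP synthase, measured by RNA sequencing in 11 cell lines of high-grade serous ovarian carcinoma (HGSOC). They were taken by symbol from the gene tables, which hold 29744 genes in all, as the NDUFA, NDUFB, NDUFC, NDUFS and NDUFV genes of complex I, SDHA to SDHD of complex II, the UQCR genes and CYC1 of complex III, the nuclear COX4 to COX8 genes of complex IV, and the ATP5 genes of complex V, under the older symbols that the tables use. That gave 84 genes, of which 36 belong to complex I, 4 to complex II, 10 to complex III, 18 to complex IV and 16 to complex V. NDUFA4 was counted with complex IV, where its protein resides, and COX7A2L, a factor that joins complexes III and IV into supercomplexes, was kept with complex IV. Subunits encoded by mitochondrial DNA were not analysed here.

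The lines form 4 families, each of a platinum-sensitive line and resistant lines of the same origin, with 3 libraries per line and 33 in all. OVCAR3 and OVCAR4 are established HGSOC lines from which the resistant lines OVCAR3 ResA, OVCAR3 ResB, OVCAR4 ResA and OVCAR4 ResB were raised independently by repeated short cisplatin pulses at rising doses, and they were not kept in cisplatin afterwards. PEA2 is the resistant partner of PEA1, and PEO4 and PEO6 of PEO1, with each family derived from a single patient. Which lines count as sensitive or resistant was read from the paper, since the labels name only line and replicate number. The OVCAR3 and OVCAR4 media contained insulin and the PEA and PEO medium did not. The OVCAR3 medium also had HEPES and more serum than the others. Sodium pyruvate was listed for the OVCAR3, PEA and PEO media but not for that of OVCAR4. The labels do not say that replicates were separate cultures, so p-values measure the spread between these libraries, which may be technical.

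Complexes I and II feed electrons into the chain from NADH and succinate, complex III passes them from quinol to cytochrome c, complex IV hands them to oxygen, and complex V uses the resulting proton gradient to make ATP. Complex I has a conserved catalytic core surrounded by accessory subunits, and complex V consists of a catalytic F1 head on a central stalk, a rotating ring of c subunits in the membrane, and a peripheral stalk that holds the head still. Several complex III, IV and V subunits exist as alternative genes, some of which are largely restricted to muscle, lung or testis.

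Total expected counts (read counts per gene as estimated by salmon, which need not be whole) ran from about 18059000 to 43394000 per library, with a median of 30611400. The 84 genes took 2.07% to 4.35% of all TPM (a level per transcript length, scaled to the same sum in each library), with a median of 3.19%. The mitochondrial rRNA genes took 1.12% to 14.8% of counts, and within the OVCAR4 family the lowest and highest libraries were at 5.18% and 14.8% in OVCAR4, 2.02% and 9.23% in OVCAR4 ResA and 2.39% and 13.1% in OVCAR4 ResB. All 8 epithelial and Mullerian markers passed 3 counts in every library, but in the lowest line they were at 0.0696 TPM (MUC16), 0.645 (WT1), 1.26 (CDH1), 2.95 (KRT7), 14 (EPCAM), 30.1 (PAX8), 127.6 (KRT8) and 205.6 (KRT18). Among leukocyte markers, CD3E had 3 counts or fewer in all 33 libraries, LYZ in 27 and PTPRC in 17, while CD68 had line means of 1.52 to 49.9 TPM. Of 7 fibroblast and endothelial markers, DCN had 3 counts or fewer in 30 libraries, COL3A1 in 27, LUM in 26, PDGFRA in 24, PECAM1 in 13 and VWF in 6, while COL1A1 had line means of 0.488 to 88.4 TPM. OVCAR4 ResA replicate 1 stood apart. A set of 9 genes was chosen as expressed in every PEO library and at 3 counts or fewer in the 7 OVCAR4 family libraries other than replicate 1 of the resistant lines. OVCAR4 ResA replicate 1 held all 9 above 3 counts, at 4.72% of the PEO level, and OVCAR4 ResB replicate 1 held 0 above 3 counts, at 0.0133%. Of sets chosen likewise from the other families, OVCAR4 ResA replicate 1 held 5 of 7 OVCAR3 genes (4.09%) and 8 of 9 PEA genes (2.80%). OVCAR4 ResB replicate 1 held 0 of either set. Some results that rest on this library are given with and without it, and others with it only.

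At 75 of the 84 genes every library had more than 3 counts. COX4I2, COX6A2, COX7A1 and COX8C, the alternative forms of COX4I1, COX6A1, COX7A2 and COX8A, had 3 counts or fewer in every library, and COX6A2 had 0 in all 33. The remaining 5, UQCRH, UQCRHL, COX7B2, COX6B2 and ATP5L2, passed 3 counts in some libraries only. Expected counts were not whole in 32 libraries for ATP5E, SDHA and NDUFC2, in 30 for UQCRB, in 26 for ATP5J2, in 23 for UQCRH and UQCRHL, and in 12 for ATP5L and ATP5L2 (difference from a whole number above 0.01). Some reads were thus divided between these genes and other annotated genes, which were not identified, and their levels are less certain.

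The most abundant members were small subunits of complexes IV and V. COX7C, a small complex IV subunit, had the highest median level over the 33 libraries, 2069 TPM (602.9 to 4790), followed by ATP5E, the epsilon subunit of the central stalk, at 1732 TPM (1198 to 2737) and by COX7B, another small complex IV subunit, at 1494 TPM (599.1 to 3622). NDUFS7, a core complex I subunit that carries an iron-sulfur cluster, was the lowest of the genes detected in every library, at 20.5 TPM (10.5 to 41.6). The 7 core genes of complex I had a median level of 92.9 TPM and its 29 accessory genes one of 188 TPM. In complex V the medians were 464 TPM for the F1 head, 587 TPM for the central stalk, 246 TPM for the c ring and 596 TPM for the peripheral stalk. Between lines, the highest line mean was a median of 3.39 times the lowest over the 75 genes detected in every library, from 1.43 times for ATP5E to 16.2 times for NDUFA3, an accessory subunit of the complex I membrane arm (line means from 138 to 2245 TPM).

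Summed over members, the complexes did not follow the same order of lines. The complex I sum was highest in OVCAR3 (11482, 15045 and 13540 TPM) and lowest in PEA2 (6181, 6329 and 6524 TPM). OVCAR3 overlapped OVCAR4 (11982, 12726 and 12970 TPM), so these neighbours were not separated. The complex II sum was lowest in OVCAR3, at 300.4 ± 53.3 TPM (SD, n = 3), next to OVCAR3 ResB at 302 ± 100 TPM. It was highest in OVCAR4, at 637 ± 126 TPM, next to OVCAR4 ResA at 614 ± 99.9 TPM. At both ends the libraries of these neighbours overlapped. The OVCAR4 ResA libraries were at 498, 671 and 672 TPM, the first being the library that stood apart above. The complex III sum was highest in PEO6, at 3449 ± 478 TPM, and lowest in PEA1, at 1560 ± 152 TPM. The libraries of PEO6 overlapped those of PEO1 and PEO4, and those of PEA1 overlapped PEA2. A large part of this difference is UQCRH, a complex III gene described below, at 1393 TPM in PEO6 and 1.16 TPM in PEA1. The order of lines without that gene was not computed. The complex IV sum ran from 6016 ± 1414 TPM in PEA1 to 12757 ± 1695 TPM in OVCAR3, and the complex V sum from 6265 ± 322 TPM in PEA2 to 12965 ± 1017 TPM in OVCAR4. Sums of TPM over chosen genes are descriptions and were not tested. In bulk RNA a lower level per cell and fewer cells with the RNA cannot be told apart.

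UQCRH, the hinge protein of complex III, was abundant in 6 lines and near zero in 5. In the OVCAR3 family it had 8947, 5965 and 5194 expected counts in OVCAR3, 3428, 3553 and 3768 in OVCAR3 ResA, and 3873, 3923 and 4270 in OVCAR3 ResB. In the PEO family it had between 5201 and 13133 counts per library. In contrast, OVCAR4 had 3, 6.89 and 1 counts, OVCAR4 ResA 410, 2 and 1, OVCAR4 ResB 55.9, 5.85 and 1, PEA1 7, 22.8 and 4.10, and PEA2 1, 3 and 0. No library of the OVCAR4 and PEA families overlapped those of the other families. Line means were 511 to 1393 TPM in the 6 lines and 0.149 to 19.6 TPM in the 5. The upper value belongs to OVCAR4 ResA and comes from its replicate 1 (58.5 TPM against 0.218 and 0.104 TPM in the other libraries), the library that stood apart above; in OVCAR4 ResB the mean was 2.95 TPM. UQCRHL, a near-identical single-exon copy elsewhere on chromosome 1, followed UQCRH, but its reads cannot be separated safely from it. Sensitive and resistant lines lay on both sides, so the split followed the families.

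**Figure D1:**
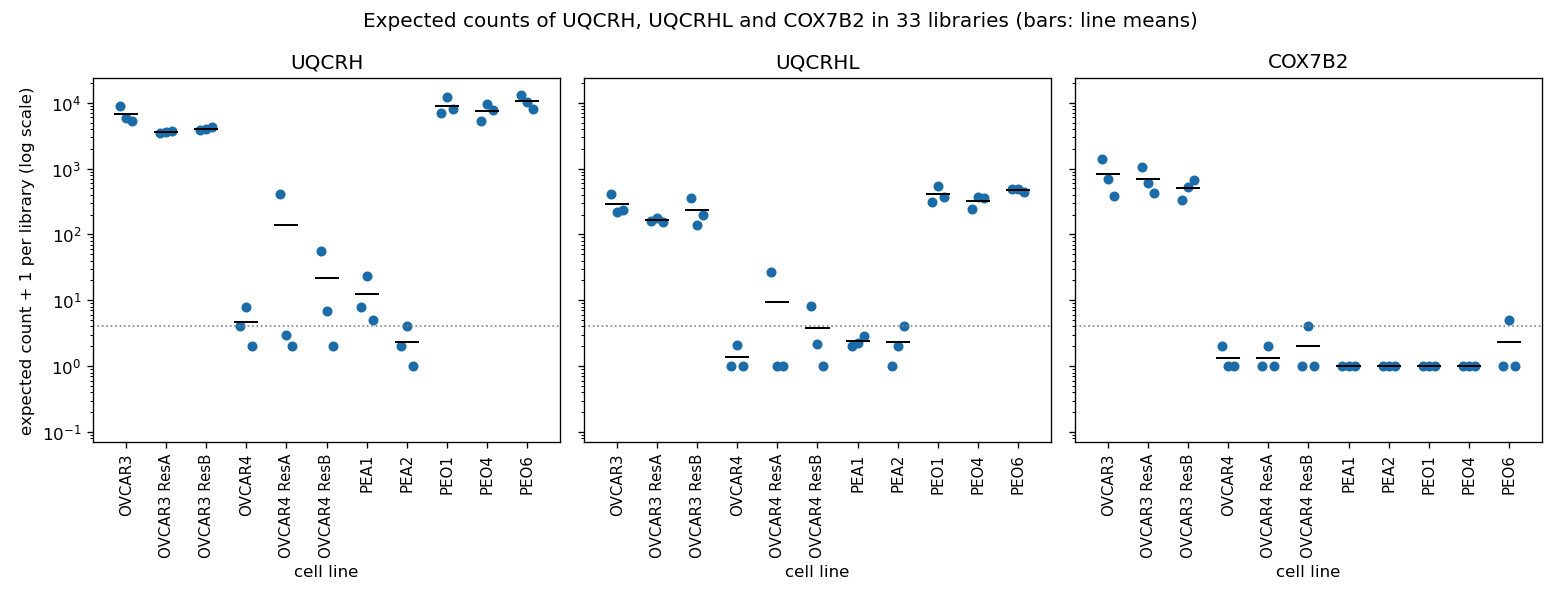
Expected counts plus 1 (log axis) of UQCRH, UQCRHL and COX7B2 in each of the 33 libraries (points) by cell line, with line means as bars and 3 counts marked by the dotted line. UQCRH held at least 3428 counts in every OVCAR3 and PEO family library and at most 410 elsewhere, and COX7B2 passed 300 counts only in the OVCAR3 family.

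UQCRH starts head to head with LRRC41, a leucine-rich repeat gene on the other strand. The stretch of 81 bases between the starts is shown because both genes are read from it. It lies at chr1:46303617-46303697 of GRCh38.p14 (plus strand, RefSeq), outside the annotated body of either gene, and holds 8 CpG dinucleotides; the capitals mark the reverse complement of the ETS family motif CCGGAAGT, to which GABPA binds.
UQCRH promoter: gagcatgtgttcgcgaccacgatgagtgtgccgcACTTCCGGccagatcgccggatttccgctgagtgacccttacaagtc
LRRC41 was near zero in 2 of the 5 lines in which UQCRH was near zero. It was at 0.0198, 0 and 0.0380 TPM in PEA2, and at 0.818, 0.438 and 0.272 TPM in OVCAR4. It was at 9.59, 9.72 and 5.23 TPM in PEA1. In OVCAR4 ResA it was at 17.5, 8.79 and 8.80 TPM, where the first value is that of the library that stood apart. The other 5 of these values lay below the 17.4 to 58.1 TPM of the PEO libraries. In OVCAR4 ResB LRRC41 was at 39.5, 34.7 and 32.8 TPM, within the PEO range. In the OVCAR3 family, where UQCRH was abundant, LRRC41 was at 5.96 to 22.8 TPM. All values of PEA1 and OVCAR4 ResA but the 5.23 TPM in PEA1 lay within that OVCAR3 range. The nearby genes RAD54L and NSUN4 had line means of at least 4.80 and 6.21 TPM in every line.

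COX7B2, an alternative form of the small complex IV subunit COX7B, was detected in the OVCAR3 family only. Its line means were 113 TPM in OVCAR3, 98.2 TPM in OVCAR3 ResA and 89.2 TPM in OVCAR3 ResB, from 338 to 1375 counts per library, and no library of the other 8 lines had more than 4 counts. It made up 5.45 ± 2.58% (SD, n = 3) of the COX7B plus COX7B2 TPM in OVCAR3, 5.51 ± 1.96% in OVCAR3 ResA and 6.80 ± 3.07% in OVCAR3 ResB, so COX7B stayed the main form. In OVCAR3 ResA against OVCAR3 the log2 fold change was -0.38 for COX7B2 (SE 0.15, DESeq2 adjusted p = 0.0318) and -0.43 for COX7B (SE 0.14, adjusted p = 0.00549). The COX7B2 call was lost without the replicate block (0.529), without any 1 replicate (0.119, 0.409 and 0.138) and with all 33 libraries in a single fit (0.66), and that of COX7B without the block (0.104) and with all 33 libraries (0.434). The 250 bases before each start are shown to compare the windows of a gene used in 1 family with that of its partner used in all lines. They are chr4:46909246-46909495 (minus strand) for COX7B2, with 5 CpG dinucleotides, and chrX:77899218-77899467 (plus strand) for COX7B, with 13. Neither stretch holds the NRF1, ETS or YY1 letters given further on, so no part is in capitals.
COX7B2 promoter: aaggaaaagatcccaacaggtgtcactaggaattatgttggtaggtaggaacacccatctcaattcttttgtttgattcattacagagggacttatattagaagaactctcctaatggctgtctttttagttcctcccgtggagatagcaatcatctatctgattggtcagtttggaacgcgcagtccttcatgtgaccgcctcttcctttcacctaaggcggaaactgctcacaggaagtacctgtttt
COX7B promoter: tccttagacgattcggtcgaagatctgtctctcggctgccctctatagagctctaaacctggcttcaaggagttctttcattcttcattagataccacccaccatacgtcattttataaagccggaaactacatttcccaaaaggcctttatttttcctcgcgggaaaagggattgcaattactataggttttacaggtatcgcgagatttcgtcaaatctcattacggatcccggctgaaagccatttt

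COX4I1, COX6A1, COX6B1, COX8A and ATP5L each carried nearly all the mRNA of their alternative pair. COX6B2, the testis form of COX6B1, had 9, 16 and 17 counts in PEA2 against 0, 1 and 0 in PEA1 and was called higher there (DESeq2 adjusted p = 0.00559), at 0.154 ± 0.047% of the COX6B TPM. That call was lost without any 1 replicate (adjusted p 0.145, 0.0691 and 0.119). COX7A2L carried 23.1% to 45.9% of the COX7A2, COX7A1 and COX7A2L TPM, with the highest share in PEO1 (45.9 ± 3.25%) and 29.1 ± 2.20% in PEO4 and 27.8 ± 1.91% in PEO6. The identical c subunit of ATP synthase is made from ATP5G1, ATP5G2 and ATP5G3, and their shares differed between lines. ATP5G2 ran from 32.0 ± 5.86% of the summed TPM in OVCAR4 ResB to 52.4 ± 7.46% in PEO6, ATP5G1 from 31.0 ± 1.85% in PEO4 to 47.5 ± 1.40% in OVCAR4 ResB, and ATP5G3 from 14.4 ± 0.60% in PEO1 to 25.1 ± 4.87% in OVCAR4 ResA. In OVCAR4 ResA, ATP5G2 was at 38.5, 28.4 and 29.7% and ATP5G3 at 19.5, 28.4 and 27.3%. The first value of each is from the library that stood apart, and the later ATP5G2 values lay below the OVCAR4 ResB mean. On normalised counts, which are not divided by length, ATP5G3 carried 41.6% to 60.0%, so the order of the 3 genes depends on the length correction.

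**Figure D2:**
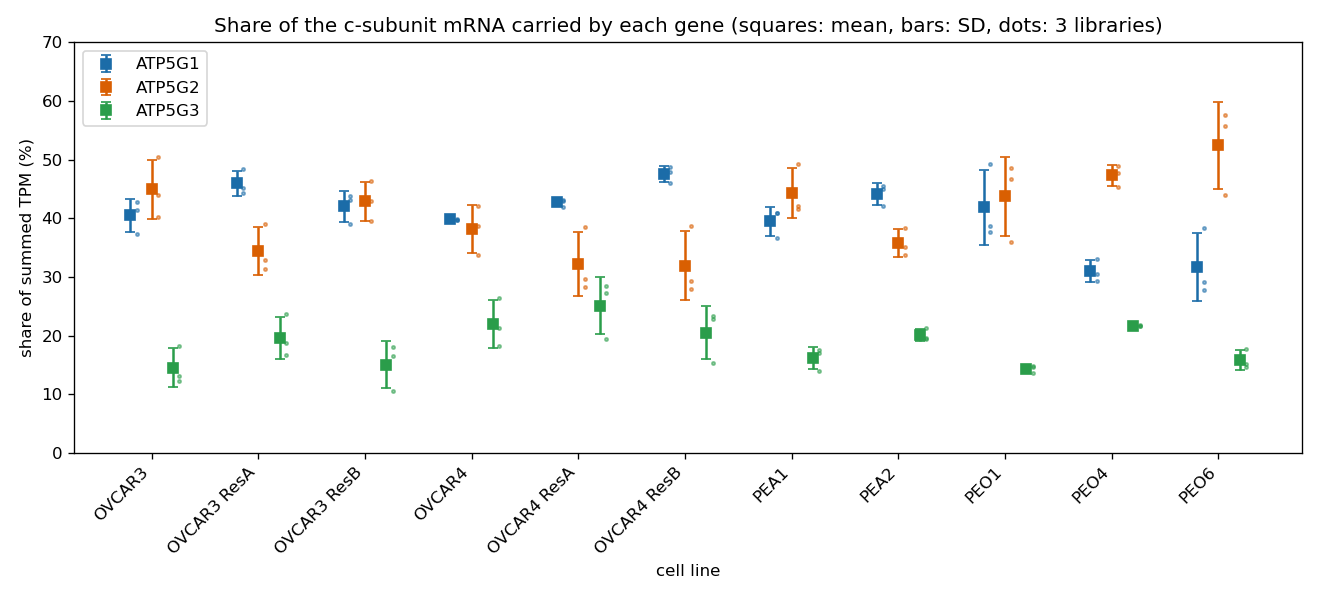
Share of the summed TPM of ATP5G1, ATP5G2 and ATP5G3 (percent, y axis) carried by each gene in each cell line, with squares as means, bars as SD and dots as the 3 libraries. ATP5G3 had the lowest mean in every line, and ATP5G2 reached 52.4% in PEO6.

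Each resistant line was then compared with its sensitive line to ask which subunit genes change along with platinum resistance. A gene was called at a Benjamini-Hochberg adjusted p under 0.05 in DESeq2 over all genes tested, with replicate number as a block. For fits with other settings or fewer libraries, no share of all genes called is given beside the counts of members. Over the 7 pairs, 76 of the 84 genes were called in at least 1 pair, against 76.3% of the 19798 genes tested in at least 1. Of these, 39 were called lower only (21.2% of all genes tested), 10 higher only (24.0%), and 27 higher in at least 1 pair and lower in another (31.1%). The largest number of pairs in which a gene was called lower was 4 (NDUFA3 and NDUFA8, both accessory subunits of the complex I membrane arm), and the largest number higher was 3 (ATP5O and COX7A2). No gene was called in the same direction in 5 or more of the 7 pairs. The members are short transcripts: 51 of the 78 with a length in the tables were among the shortest 10% of genes, and the medians of all genes in that class are given beside the members' medians. How far length contributed was not tested.

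**Figure D3:**
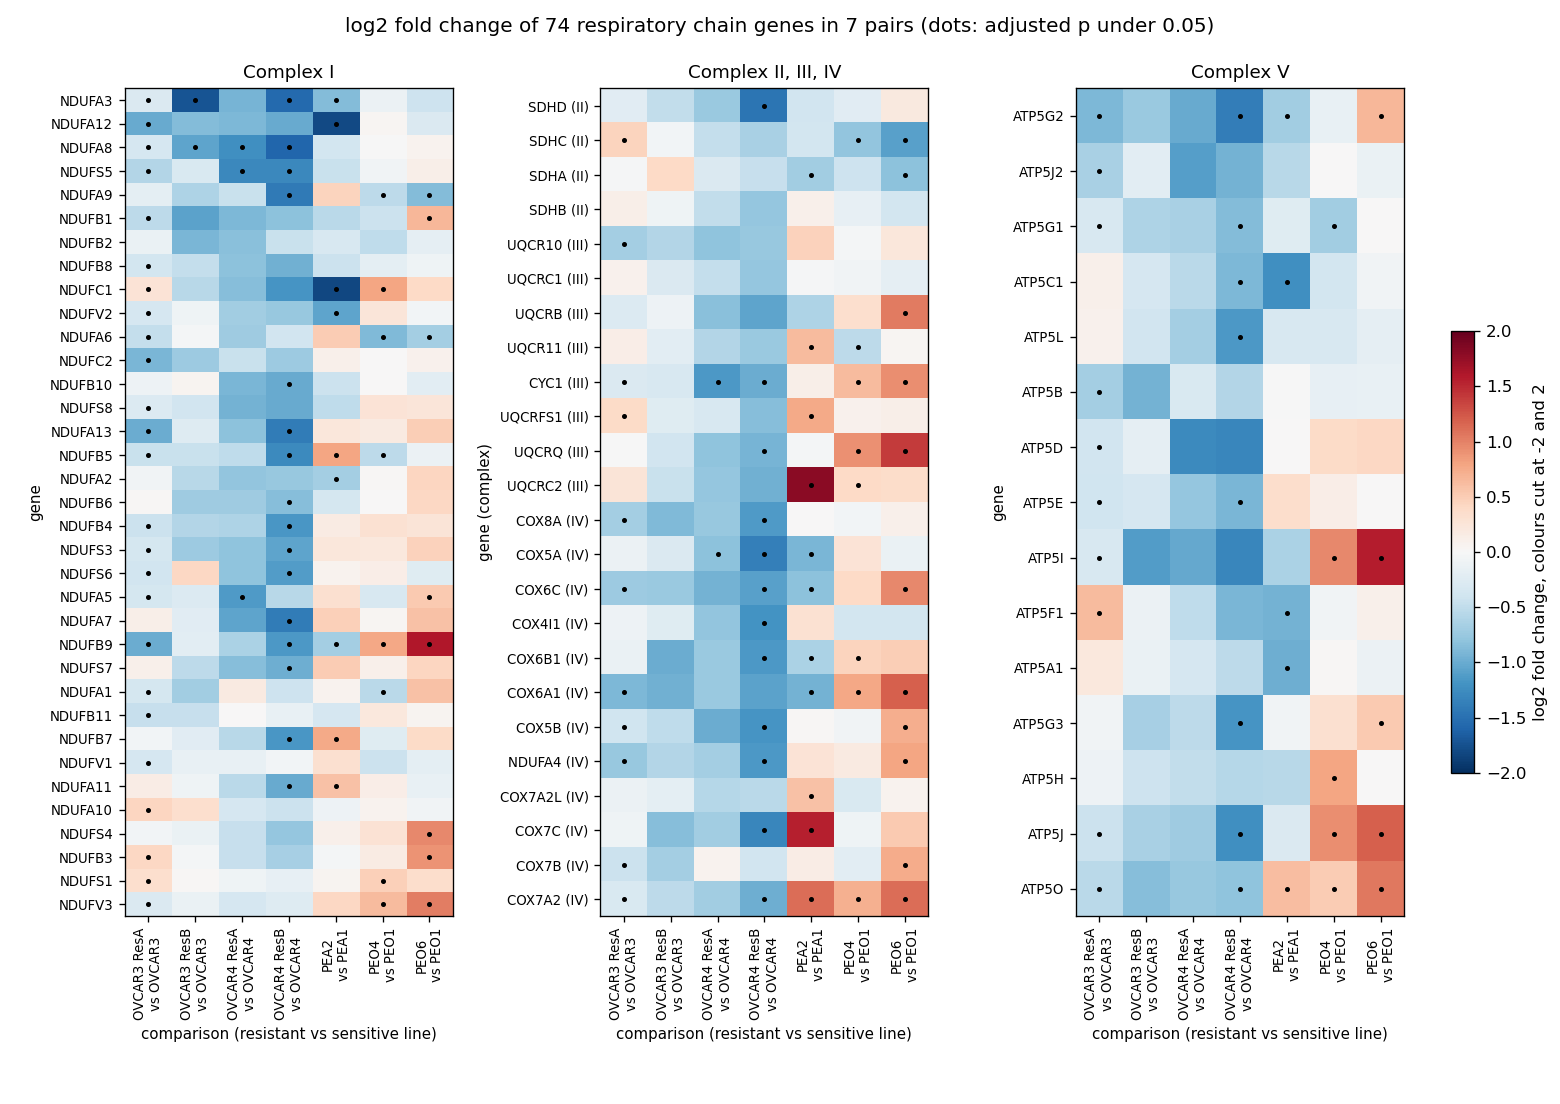
log2 fold change (colour) of 74 of the 75 genes detected in every library, by complex and gene (rows) and by pair of resistant and sensitive line (columns), with dots at adjusted p under 0.05. Calls in the OVCAR4 ResB column are all lower (36 genes), whereas PEO6 has 20 genes called higher.

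In OVCAR3 ResA, 42 members were lower and 8 higher than in OVCAR3, where 22.9% and 22.0% of all tested genes were called lower and higher. The decrease was spread over complex I (21 of 36 lower, 5 higher), complex III (4 of 10), complex IV (8 of 18) and complex V (9 of 16), and complex II had 0 lower and 1 higher. The median log2 fold change of the members was -0.29, against 0.01 over all genes and -0.10 over the shortest 10%. UQCRH had 7020, 7799 and 7121 normalised counts in OVCAR3 and 3158, 3290 and 3787 in OVCAR3 ResA, so it was lower in each resistant library (log2 fold change -1.08, SE 0.11, adjusted p = 4.91e-22). NDUFA12, an accessory subunit of the complex I matrix arm, had 2052, 3788 and 3146 in OVCAR3 and 994.1, 1473 and 1953 in OVCAR3 ResA, with no overlap (-1.01, SE 0.14, adjusted p = 1.71e-12). ATP5F1, subunit b of the peripheral stalk, went the other way, from 7552, 5340 and 4423 to 10761, 8417 and 7003 with overlapping libraries (0.63, SE 0.10, adjusted p = 1.68e-09). SDHC, a membrane anchor of complex II, rose from 3693, 3151 and 2942 to 4434, 4537 and 4126 (0.45, SE 0.11, adjusted p = 0.00015). Without the replicate block 16 members were called, and the call of ATP5F1 was lost (adjusted p = 0.0842), while UQCRH, NDUFA12 and SDHC kept theirs. Of the 8 epithelial and Mullerian markers 2 were higher and 5 lower in this pair, and their part was not tested. With all 33 libraries in a single fit, which estimates the spread over every line, 9 members were called and NDUFA12 was the only one of these 4 still called.

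In OVCAR3 ResB only 2 members were called, both lower (3.57% of all tested genes were lower and 4.10% higher), although 72 of 78 members had a log2 fold change below 0 and the median was -0.39 (all genes 0.01, shortest 10% -0.23). NDUFA3 had 4778, 10698 and 12354 normalised counts in OVCAR3 and 1991, 6223 and 1291 in OVCAR3 ResB, with overlapping libraries (-1.73, SE 0.43, adjusted p = 0.00157). NDUFA8, a complex I subunit that faces the intermembrane space, had 2610, 4065 and 3401 against 1311, 2585 and 1168, without overlap (-1.05, SE 0.33, adjusted p = 0.0243). In limma on log2(TPM + 1) the NDUFA3 call was lost (0.0511). The NDUFA8 call was lost without replicate 1 (adjusted p = 0.276), without replicate 2 (0.26) and in edgeR (0.0947). Without replicate 3 the number of calls was 12, and it was 29 with the mitochondrial rRNA share as a covariate in place of the block.

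The OVCAR4 pairs had the lowest medians of the 7 pairs. With the mitochondrial rRNA share in place of the replicate block, 32 members were called in OVCAR4 ResA (31 lower, member median -0.34) and 66 in OVCAR4 ResB (65 lower, -0.79). How many of all genes were called in these fits is not given, so whether such counts are particular to the members cannot be told. Of the 7 fibroblast and endothelial markers 2 were higher in OVCAR4 ResA and 1 higher and 1 lower in OVCAR4 ResB, and their part was not tested. Both pairs share the OVCAR4 libraries, as the OVCAR3 pairs share those of OVCAR3. In OVCAR4 ResA 5 members were lower and 0 higher (5.22% and 6.68% of all tested genes), the median was -0.71 (all genes -0.01, shortest 10% -0.52) and 72 of 76 members were below 0. NDUFS5, a subunit of the complex I membrane arm, had 11059, 13930 and 14275 normalised counts in OVCAR4 and 7853, 4933 and 4060 in OVCAR4 ResA (-1.29, SE 0.35, adjusted p = 0.00438). NDUFA8 had 3148, 4471 and 4671 against 2560, 1507 and 1411 (-1.23, SE 0.37, adjusted p = 0.0131). In both genes the groups did not overlap, and replicate 1 of the resistant line, the library that stood apart, lay closest to OVCAR4. Without replicate 1 in both lines 54 members were called, all lower, against 1 (higher) without replicate 2 and 0 without replicate 3, with 2 at an unadjusted p under 0.05. edgeR called 0 members, with 21 at an unadjusted p under 0.05, whereas 28 were called without the block (all lower) and 27 with all 33 libraries in a single fit (25 lower).

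In OVCAR4 ResB 36 members were lower and 0 higher, where 8.77% of all tested genes were lower and 9.09% higher. The median was -0.96, against -0.01 over all genes and -0.56 over the shortest 10%. Lower calls were found in complex I (16 of 36), complex II (1 of 4), complex III (2 of 10), complex IV (9 of 18) and complex V (8 of 16, including all 3 c-ring genes). NDUFA8 had 3148, 4471 and 4671 normalised counts in OVCAR4 and 1901, 1141 and 1168 in OVCAR4 ResB (-1.58, SE 0.37, adjusted p = 0.000371). SDHD, the other membrane anchor of complex II, had 6926, 7285 and 7382 against 3001, 2462 and 2458 (-1.47, SE 0.30, adjusted p = 1.85e-05). Both genes were lower in every resistant library. The counts again turned on the libraries, with 66 calls without replicate 1 (65 lower), 1 without replicate 2 and 0 without replicate 3, with 17 at an unadjusted p under 0.05, and both named calls were lost in the latter cases (adjusted p 0.106 and 0.181 for NDUFA8, 0.0528 and 0.11 for SDHD). edgeR called 6, limma on log2(TPM + 1) called 0, with 4 at an unadjusted p under 0.05, and scaling within bins of transcript length left 7. TPM moved the median of all genes by 0.44 in OVCAR4 ResA and 0.47 in OVCAR4 ResB (log2), and relative to that shift the members' medians were -0.61 and -0.84.

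**Figure D4:**
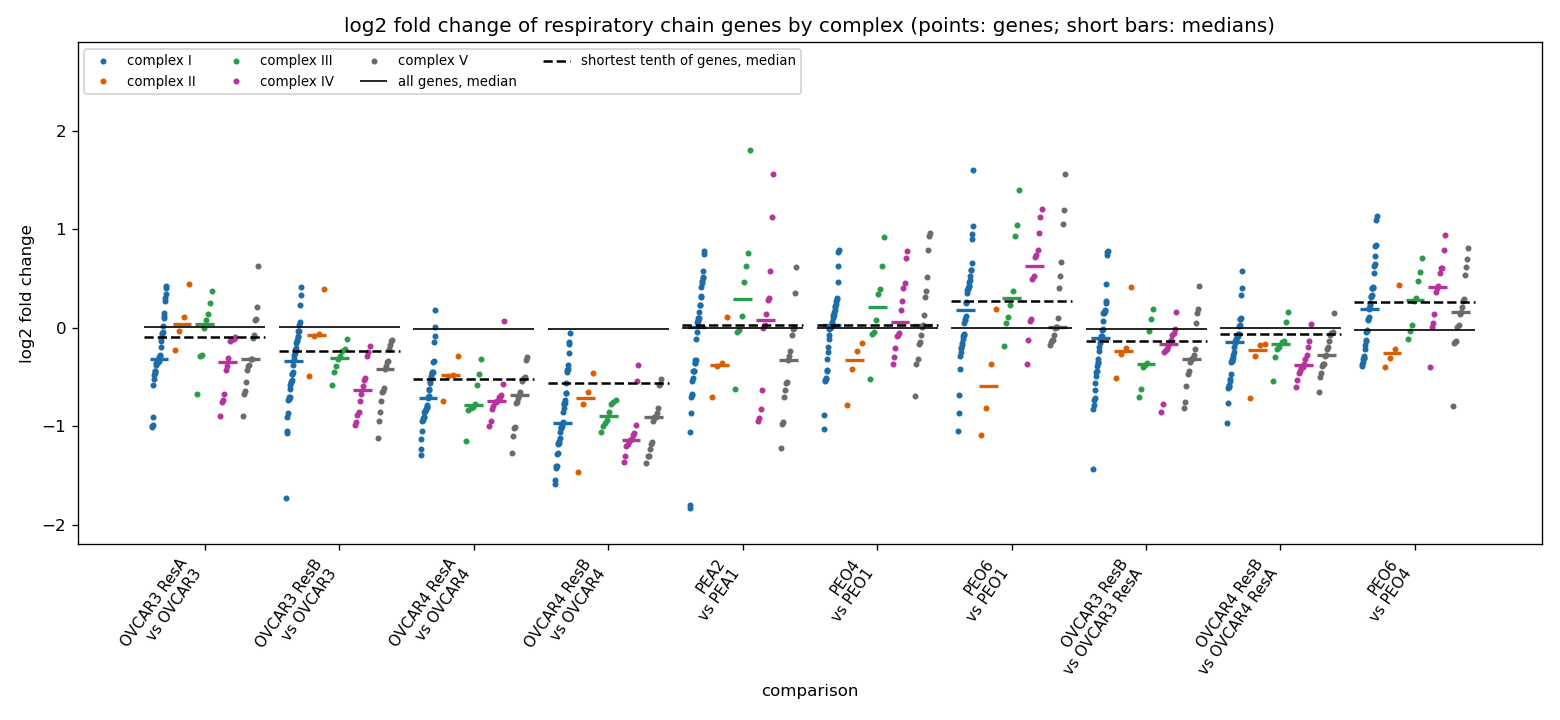
log2 fold change (y axis) of the 75 genes detected in every library (points, coloured by complex) in the 10 comparisons, with coloured bars at the median of each complex, solid lines at the median of all genes and dashed lines at that of the shortest 10% of genes. The median of each of the 5 complexes lies below the dashed line in OVCAR4 ResB against OVCAR4, and the complex II median lies below 0 in PEA2, PEO4 and PEO6.

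In PEA2 the members split, with 11 higher and 16 lower than in PEA1 (23.3% and 23.8% of all tested genes) and a median of -0.04 (all genes 0.00, shortest 10% 0.03). UQCRC2, a core protein of complex III, had 2983, 2663 and 2840 normalised counts in PEA1 and 9688, 9340 and 10379 in PEA2 (1.80, SE 0.21, adjusted p = 3e-16). COX7C had 2789, 5286 and 2121 against 7794, 8555 and 11771 (1.56, SE 0.31, adjusted p = 2.78e-06). In the other direction, NDUFC1, a small subunit of the complex I membrane arm, had 1234, 3136 and 1018 in PEA1 and 417, 503 and 409 in PEA2 (-1.83, SE 0.29, adjusted p = 4.39e-09), and NDUFA12 had 3414, 5811 and 2645 against 1050, 1002 and 1161 (-1.80, SE 0.28, adjusted p = 1.85e-09). The groups did not overlap for any of these 4 genes, and all 4 calls were kept under every alternative run. The total without replicate 1 was 8, and with the mitochondrial rRNA covariate it was 27 higher and 11 lower. Of the 8 epithelial and Mullerian markers 6 were higher in PEA2 and 0 lower (median 4.15), and their part in these results was not tested.

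PEO4 and PEO6 were compared with the same PEO1 libraries. In PEO4 14 members were higher and 8 lower (16.6% and 16.7% of all tested genes, member median 0.01, all genes 0.00, shortest 10% 0.03), and in PEO6 20 were higher and 5 lower (21.2% and 20.3%, member median 0.12, all genes -0.01, shortest 10% 0.27). ATP5I, subunit e of ATP synthase, which takes part in forming dimers of the enzyme, had 2172, 3552 and 2261 normalised counts in PEO1, 3307, 4911 and 7607 in PEO4 (0.96, SE 0.23, adjusted p = 0.000201) and 9887, 9718 and 4964 in PEO6 (1.57, SE 0.25, adjusted p = 4.7e-09). ATP5J, subunit F6 of the peripheral stalk, had 1054, 1431 and 1418 in PEO1 against 1704, 2267 and 3679 in PEO4 (0.93, SE 0.20, adjusted p = 1.5e-05). NDUFB9, an accessory subunit of the complex I membrane arm, had 4887, 5523 and 5970 in PEO1 and 14580, 15697 and 20922 in PEO6 (1.61, SE 0.21, adjusted p = 2.5e-13), the largest increase. Of these, only ATP5I in PEO4 overlapped PEO1.

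NDUFA6, an accessory subunit of the matrix arm, had 1698, 2448 and 1983 in PEO1 and 835.5, 1036 and 1451 in PEO4 (-0.88, SE 0.20, adjusted p = 6.48e-05). SDHC had 4732, 5091 and 5151 in PEO1 and 2337, 1949 and 2992 in PEO6 (-1.09, SE 0.22, adjusted p = 8.59e-06). Both sets of groups were separate. The c-ring gene ATP5G1 was lower in PEO4 (-0.69, SE 0.18, adjusted p = 0.000874), a call that was lost without replicate 1 (0.105) and without replicate 2 (0.0525). With the mitochondrial rRNA covariate the calls of ATP5I (adjusted p 0.32 in PEO4 and 0.101 in PEO6) and of ATP5J (0.107) were lost, and the split was 4 higher and 18 lower in PEO4 and 3 and 2 in PEO6. Scaling within bins of length gave 14 higher and 14 lower in both.

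The summed complex IV level was higher in PEO6 (14111, 11058 and 9295 TPM) than in PEO1 (6447, 9207 and 6521 TPM) in every library. Of its 18 genes 6 were called higher and 0 lower in PEO6, where 21.2% and 20.3% of all tested genes were. In PEO4 the counts were 3 and 0, against 16.6% and 16.7% of all tested genes. UQCRQ, a small complex III subunit, and CYC1, cytochrome c1, were called higher in both lines, at 0.92 and 0.63 in PEO4 and 1.40 and 0.93 in PEO6; both were chosen after their values were seen.

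Resistant lines of the same family were also compared with each other. OVCAR3 ResB differed from OVCAR3 ResA in 1 member, NDUFA3 (6.04% of all tested genes lower, 7.47% higher), with 3814, 8346 and 10280 normalised counts in ResA and 1991, 6223 and 1291 in ResB (-1.43, SE 0.45, adjusted p = 0.0143), a call that was lost without replicate 1 (0.0573), without the block (0.0987) and in edgeR (0.0995). The member median was -0.20 there (all genes -0.01, shortest 10% -0.13). In OVCAR4 ResB 33 members were lower and 3 higher than in OVCAR4 ResA (16.5% and 16.2%), with a median of -0.23 (all genes 0.00, shortest 10% -0.07). NDUFA9, an accessory subunit of the matrix arm, had 1837, 2673 and 2586 in ResA and 792.3, 1335 and 1536 in ResB (-0.97, SE 0.13, adjusted p = 3.63e-13). NDUFB5, of the membrane arm, had 4190, 4184 and 4156 against 2471, 2456 and 2393 (-0.76, SE 0.09, adjusted p = 8.53e-17), and the 6 values fell into 2 narrow, separate sets. NDUFA5 and NDUFB2, both accessory subunits, were higher in ResB, by 0.58 (SE 0.12, adjusted p = 2.04e-05) and 0.40 (SE 0.14, adjusted p = 0.0154). Without the block 4 members were called, and neither NDUFA5 (adjusted p = 0.479) nor NDUFB2 (0.473) was among them, while NDUFA9 and NDUFB5 were called under every alternative run, the fits without replicate 1 included. In that fit 26 members were called, and 14 without replicate 2.

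PEO6 differed from PEO4 in 3 members, all higher (9.86% of all tested genes higher, 8.33% lower), with a median of 0.21 against -0.02 over all genes and 0.26 over the shortest 10%. NDUFA1, a small membrane-arm subunit, had 1532, 2241 and 2328 normalised counts in PEO4 and 6171, 4810 and 3158 in PEO6 (1.13, SE 0.34, adjusted p = 0.00908). NDUFB9 had 8964, 9724 and 8717 against 14580, 15697 and 20922 (0.83, SE 0.29, adjusted p = 0.0254). Both sets were separate. Without replicate 1 both calls were lost (adjusted p 0.351 and 0.141), as they were without replicate 2 (0.245 and 0.338), and without replicate 3 the count was 26.

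Complex II is encoded wholly in the nucleus, and in no pair were all 4 of its genes called. SDHA, the flavoprotein that oxidises succinate, was lower in PEA2 (5459, 4130 and 5812 normalised counts in PEA1, 3298, 3356 and 2696 in PEA2, -0.70, SE 0.24, adjusted p = 0.0102) and in PEO6 (-0.82, SE 0.21, adjusted p = 0.000697). The call in PEA2 was lost without replicate 1 (0.184) and without replicate 3 (0.0706), and that in PEO6 with the mitochondrial rRNA covariate (0.188). SDHB, its iron-sulfur partner, was called in none of the 7 pairs, with log2 fold changes from -0.77 to 0.11. SDHC was lower in PEO4 and PEO6 and higher in OVCAR3 ResA, and SDHD was called in OVCAR4 ResB alone, at -0.23 (adjusted p = 0.394) in PEO4 and 0.19 (adjusted p = 0.544) in PEO6. Levels also differed between families: SDHA was at 829 to 1115 normalised counts in the OVCAR4 lines (line means) and 2232 to 5133 in the PEA and PEO lines, whereas SDHB was at 2760 to 4665 in the OVCAR4 lines and 1119 to 2077 in all others. The SDHD promoter is shown as an example of motifs that recur among the members. It is the 116 bases between SDHD and TIMM8B, which starts on the other strand, at chr11:112086757-112086872 of GRCh38.p14 (plus strand), with the NRF1 palindrome and the reverse complement of the ETS motif in capitals.
SDHD promoter: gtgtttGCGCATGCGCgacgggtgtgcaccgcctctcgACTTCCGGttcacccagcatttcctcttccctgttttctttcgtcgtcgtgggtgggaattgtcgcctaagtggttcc

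Across the 11 lines, with family as a term and each line as a single unit, 0 members differed between resistant and sensitive lines in DESeq2 (0.286% of all tested genes did), with 11 members at an unadjusted p under 0.05. edgeR also called 0, with 12 at an unadjusted p under 0.05. The member median was -0.30 (all genes 0.01, shortest 10% -0.13). Without the PEO family 4 members were called lower, ATP5G2, COX6A1, COX6C and NDUFA12. PEO4 and PEO6 counted as separate units here and in the test that follows. The paper describes them as thought to share a clone of origin, so they may not be independent.

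A further test asked whether the change with resistance differed between cisplatin-selected lines (OVCAR3 and OVCAR4 families) and lines from treated patients (PEA and PEO families). It called 2 members, both with a lower change in the cisplatin-selected lines (2.16% of all tested genes were called). ATP5O, the oligomycin sensitivity protein that joins the peripheral stalk to the F1 head, had 11273, 13003 and 9646 normalised counts in OVCAR3, 8048, 7076 and 7633 in ResA and 5560, 8174 and 5039 in ResB. In OVCAR4 it had 13445, 14412 and 17162, and 7777 to 9969 in the 6 libraries of ResA and ResB. It rose from 5324, 6014 and 3903 in PEA1 to 6998, 7096 and 8988 in PEA2, and from 2313, 3068 and 2512 in PEO1 to 3192, 3952 and 3912 in PEO4 and 7761, 4241 and 5085 in PEO6. Each resistant library thus lay below every sensitive library of its family in OVCAR3 and OVCAR4, and above in PEA and PEO. The log2 fold changes were -0.55, -0.86, -0.75 and -0.81 in OVCAR3 ResA, OVCAR3 ResB, OVCAR4 ResA and OVCAR4 ResB, the first and last of which were called, and 0.62, 0.51 and 1.05 in PEA2, PEO4 and PEO6, all called. Their difference was -1.46 (SE 0.42, adjusted p = 0.032).

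COX7A2, the common form of complex IV subunit 7a, had the larger difference, -1.60 (SE 0.43, adjusted p = 0.0165). Its log2 fold changes were -0.30, -0.53, -0.70 and -0.98 in the 4 cisplatin-selected lines, the first and last called, and 1.12, 0.71 and 1.12 in PEA2, PEO4 and PEO6, all called. PEA1 had 2681, 3507 and 2183 normalised counts and PEA2 5269, 5675 and 6956, without overlap, and in PEO1 and PEO4 the libraries overlapped (1935, 3419 and 1700 against 3284, 4237 and 3365). Of these calls, that in OVCAR3 ResA was lost without the block (0.366), without replicate 2 (0.566) and without replicate 3 (0.113), that in OVCAR4 ResB in edgeR (0.0835), without replicate 2 (0.197) and without replicate 3 (0.498), that in PEO4 without replicate 1 (0.0953) and with the mitochondrial rRNA covariate (0.0915), and that in PEO6 with this covariate (0.278). Both interaction calls were lost in edgeR (adjusted p 0.522 for ATP5O and 0.477 for COX7A2) and without replicate 3 (0.24 and 0.155). Medium, derivation and patient differ together between these families and cannot be told apart.

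**Figure D5:**
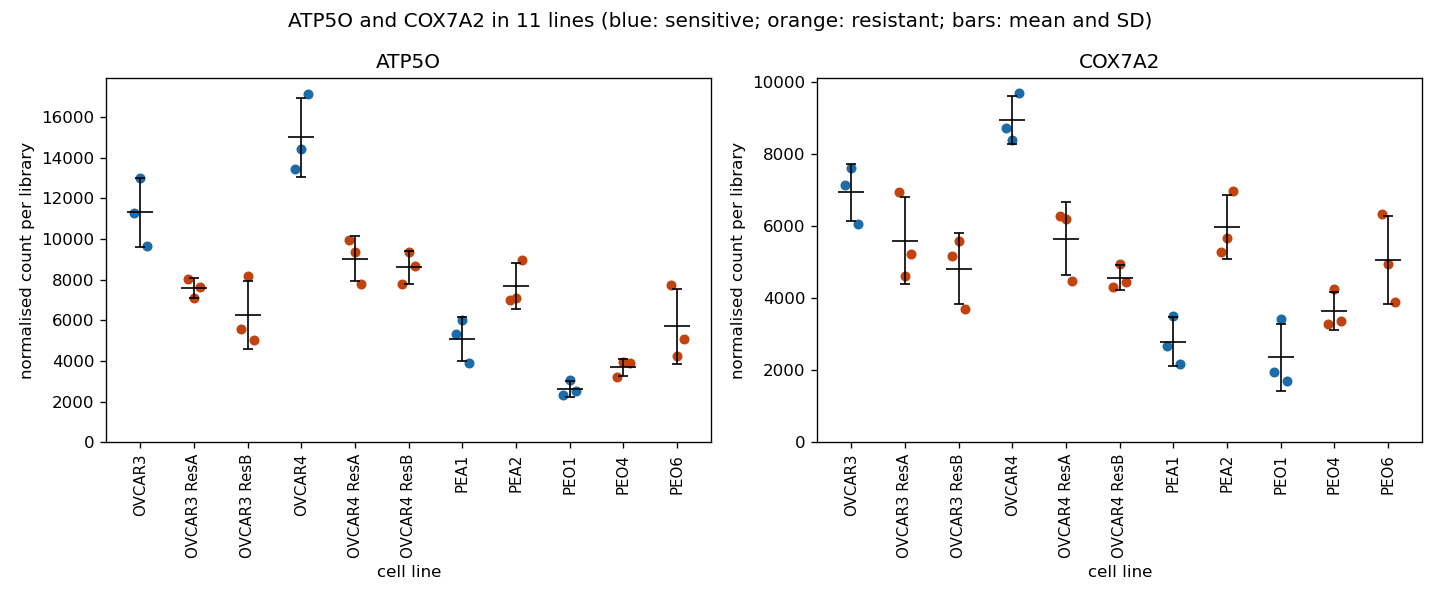
Normalised counts (y axis) of ATP5O and COX7A2 in each library (points) by cell line, sensitive lines in blue and resistant lines in orange, with bars for mean and SD (n = 3). Resistant lines have lower means in the OVCAR3 and OVCAR4 families and higher means in the PEA and PEO families.

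Several called members share a chromosome, and the other genes there were examined after the values were seen. ATP5O, ATP5J and NDUFV3, a complex I subunit, are the 3 members on chromosome 21; their median log2 fold change was 0.63 in PEO4, where 139 other chromosome 21 genes also had a median of 0.63, and 1.05 in PEO6, against 0.91 for 145 others. NDUFB9, COX6C, CYC1 and UQCRB, the 4 members on chromosome 8, were all called higher in PEO6. Their median was 1.003, against 0.22 for 513 other genes over the whole chromosome, a difference that was not tested. The 4 lie between bases 96222947 and 144097525, and genes of that stretch alone were not compared. In PEA2 the 2 members measured on chromosome 4, NDUFC1 and ATP5I, had a median of -1.23 and 541 other genes one of -0.61, and on chromosome 18, ATP5A1 and NDUFV2 had -1.02 and 197 others -0.69. COX7A2 was the only member on chromosome 6. Its log2 fold change was 0.71 in PEO4, where 713 other chromosome 6 genes had a median of 0.59. In PEO6 it was 1.12, against 0.41 for 751 others, and in PEA2 1.12, against -0.22 for 753 others. In the cisplatin-selected lines, the 5 members on chromosome 12, NDUFA12 among them, had a median of -0.90 in OVCAR3 ResA. There 759 other genes had -0.37. In OVCAR3 ResB the medians were -0.86 for these members and -0.35 for 743 others. On chromosome X the 3 members had 0.07 in OVCAR4 ResA, against 0.83 for 439 others. In OVCAR4 ResB they had -0.38, against 0.81 for 456 others. Copy number was not measured here.

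Genes that build or regulate the chain were counted in the same way. Of 46 assembly factors 43 were in the tables, with 8 higher and 20 lower in OVCAR3 ResA, 0 and 0 in OVCAR3 ResB, 0 and 3 in OVCAR4 ResA, 0 and 5 in OVCAR4 ResB, 10 and 7 in PEA2, 3 and 8 in PEO4, and 7 and 4 in PEO6. Of 15 regulators 14 were in the tables, with 2 and 6, 0 and 1, 0 and 0, 0 and 2, 2 and 2, 3 and 2, and 4 and 2 called higher and lower in the same order. Of all tested genes, 22.0% and 22.9% were higher and lower in OVCAR3 ResA and 4.10% and 3.57% in OVCAR3 ResB. The shares were 6.68% and 5.22% in OVCAR4 ResA and 9.09% and 8.77% in OVCAR4 ResB. In PEA2 they were 23.3% and 23.8%, in PEO4 16.6% and 16.7%, and in PEO6 21.2% and 20.3%. PPARGC1A, which encodes the coactivator PGC-1α, was higher in OVCAR3 ResA (1.53, adjusted p = 3.75e-13), in PEO4 (3.60, adjusted p = 9.4e-15) and in PEO6 (3.36, adjusted p = 4.43e-10), and lower in OVCAR4 ResB (-1.07, adjusted p = 0.0178) and PEA2 (-3.00, adjusted p = 7.87e-07). Its line means ran from 0.0918 TPM in PEA2 to 24.4 TPM in OVCAR4 ResA, and in the PEO family from 0.115 TPM in PEO1 to 1.33 TPM in PEO4. Where PPARGC1A was higher, subunit genes called higher and lower were 8 and 42 in OVCAR3 ResA, 14 and 8 in PEO4, and 20 and 5 in PEO6. Where it was lower, they were 0 and 36 in OVCAR4 ResB and 11 and 16 in PEA2. A link between PPARGC1A and the subunit genes was not tested. ESRRA, a nuclear receptor that works with PGC-1α, was higher in PEA2 (1.92, adjusted p = 3.31e-12). GABPA, the ETS factor, is on chromosome 21 as well and was higher in PEA2 (0.66, adjusted p = 0.0108), PEO4 (0.65, adjusted p = 0.0019) and PEO6 (1.15, adjusted p = 8.65e-06). NRF1 was called in none of the 7 pairs, with log2 fold changes from -0.28 to 0.45.

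Promoter windows of 300 bases (250 before and 50 after the start, RefSeq, GRCh38.p14) were found for 67 of the 84 members. The NRF1 letters GCGCATGCG stood on either strand in 11 of them (16.4%), against 2.34% of 27305 genes and 3.11% of protein-coding genes. The ETS letters CCGGAAGT stood in 11 (16.4%, against 4.95% and 6.97%), and the YY1 letters AAGATGGCG in 9 (13.4%, against 2.14% and 3.21%). Matches of different motifs overlapped in 0 of the 80 member windows. In all, 27 members (40.3%) held at least 1 of them, against 8.78% of all genes and 12.3% of protein-coding genes. A match describes the letters in the window and does not show binding.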

How the data were processed

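RNA was sequenced from 33 libraries of 11 lines (poly(A)-selected libraries, per the study's methods). Base calls were converted to reads with DRAGEN on the instrument. The authors aligned the reads to GRCh38 in the nf-core RNA-seq pipeline and deposited merged salmon gene tables of expected counts and of TPM (a level per transcript length). Expected counts were rounded; 88.4% were whole as deposited. DESeq2 1.42.0 (R 4.3.3) fitted line and replicate number over the 6 libraries of each comparison, with no filter, and Benjamini-Hochberg adjustment over all genes. Line-level and interaction tests used counts summed per line, with family as a term. Line roles come from the study's text. The members, gene lists and tests were chosen with earlier results of these data known. Named members were, per comparison, up to 2 called higher and 2 called lower by size with a mean of at least 100 normalised counts and with each of the 3 like-numbered pairs of libraries changed one way, those called one way in at least 5 of 7 pairs (0 genes), isoforms, complex II and interaction calls; others are said to be chosen after their values were seen.

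Alternatives were the fit without the block, edgeR 4.0.16, a filter of 10 counts in 3 libraries, all 33 libraries together, limma 3.58.1 on log2(TPM + 1) and log2(TPM + 0.1), mitochondrial rRNA share in place of the block, leaving out each replicate, and, added after seeing the data, scaling within length bins. Same-numbered libraries deviated together (all 3 correlations above 0.1) in 2 of 10 comparisons, OVCAR3 ResA against OVCAR3 (0.674, 0.244 and 0.463) and OVCAR4 ResB against OVCAR4 ResA (0.726, 0.546 and 0.581). The scripts were tested on simulated data. ATP5S and 2 pseudogenes were left out. Results of 1 member are not reported here. Number of libraries and depth limit precision, and the tests cover the spread between libraries only.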

Additional observations from a re-analysis of the deposited data

Results flagged for a closer look

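The change with resistance differed between the cisplatin-selected and the patient-derived pairs for 2 members. For ATP5O the change in the cisplatin-selected pairs minus that in the patient-derived pairs was -1.46 on the log2 scale (SE 0.42, DESeq2 adjusted p = 0.032), with lower levels in all 4 cisplatin-selected lines and higher levels in all 3 patient-derived resistant lines. For COX7A2 it was -1.60 (SE 0.43, DESeq2 adjusted p = 0.0165), with the same directions in all 7 lines. In edgeR the values were -1.45 and -1.60, with adjusted p 0.522 and 0.477. Without replicate 3 they were -1.28 and -1.36, with DESeq2 adjusted p 0.24 and 0.155. PEO4 and PEO6, which by the paper are thought to share a clone of origin, counted as separate lines in these tests. Family, medium and the way resistance arose cannot be told apart in this design.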

How the results depend on the processing

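Of 799 values of named members under alternatives, 563 kept direction and call, 235 kept direction without the call and 1 reversed, COX6B1 in PEO4 at -0.057 with the mitochondrial rRNA covariate. Calls were kept under every alternative for 16 of 74 named values. The counts of called members moved as follows, and the cause was not tested. They are given without the share of all genes called under the same setting. Without the replicate block they were 16 in OVCAR3 ResA, 28 in OVCAR4 ResA, 4 in OVCAR4 ResB against ResA and 10 in PEO6 against PEO4; outside the 2 comparisons named above the libraries share only a number, and pairing was not shown. edgeR gave 1 in OVCAR3 ResB, 0 in OVCAR4 ResA (21 at an unadjusted p under 0.05), 6 in OVCAR4 ResB, 0 in OVCAR3 ResB against ResA (4 unadjusted), 1 in PEO6 against PEO4 and 0 for the interaction (12 unadjusted). The filter gave 5 in PEO6 against PEO4. All 33 libraries together gave 9 in OVCAR3 ResA, 10 in OVCAR3 ResB, 27 in OVCAR4 ResA, 12 in PEO4, 9 in OVCAR3 ResB against ResA, 6 in OVCAR4 ResB against ResA and 8 in PEO6 against PEO4. On log2(TPM + 1) and log2(TPM + 0.1), limma gave 30 and 23 in OVCAR3 ResA and 19 and 13 in OVCAR4 ResB against ResA, and 0 in OVCAR3 ResB (8 and 5 unadjusted), OVCAR4 ResA (1 and 0), OVCAR4 ResB (4 and 3), OVCAR3 ResB against ResA (4 and 1) and PEO6 against PEO4 (12 and 8); the smaller pseudocount gave 16 in PEA2, 13 in PEO4 and 16 in PEO6. The mitochondrial rRNA covariate gave 27 in OVCAR3 ResA, 29 in OVCAR3 ResB, 32 in OVCAR4 ResA, 66 in OVCAR4 ResB, 5 in PEO6, 24 in OVCAR3 ResB against ResA and 27 in PEO6 against PEO4. Length bins gave 1 in OVCAR3 ResB, 3 in OVCAR4 ResA, 7 in OVCAR4 ResB and 5 in OVCAR3 ResB against ResA, and changed the split to 12 higher and 26 lower in PEA2 and to 1 higher and 2 lower in PEO6 against PEO4. Leaving out 1 replicate gave 28 to 34 in OVCAR3 ResA, 1 to 12 in OVCAR3 ResB, 0 to 54 in OVCAR4 ResA, 0 to 66 in OVCAR4 ResB, 8 to 30 in PEA2, 10 to 35 in PEO4, 15 to 20 in PEO6, 0 to 21 in OVCAR3 ResB against ResA, 14 to 33 in OVCAR4 ResB against ResA, 0 to 26 in PEO6 against PEO4 and 0 to 3 for the interaction. Without the PEO family 4 members were called at line level. The share of COX7B2 on normalised counts was 6.93%, 7% and 8.57% in the OVCAR3 lines. Members near 0 counts could not be compared at this depth.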
